A study of Homo sapiens with 15 samples.

Results

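BEAS-2B, an immortalized line of human bronchial epithelial cells, was exposed to fine particulate matter (PM2.5) in a single high-concentration protocol and in a repeated low-concentration protocol, and the comparison described here sets both responses against each other. For each gene, the change after 1 µg/cm2 of PM2.5 given daily in the repeated protocol, relative to its own vehicle control, was compared with the change after a single dose of 30 µg/cm2 lasting 24 h, relative to the vehicle control at 24 h. The difference is given throughout as the repeated response minus the single high response on the log2 scale, so that a positive value marks a gene whose change was relatively higher after repeated exposure. All genes past a filter on low counts were members of the comparison, which were 17599 of the 58219 genes in the deposited table. There were 3 libraries in each of the 4 groups, 12 of the 15 libraries of the study, and each replicate number marks an independent experiment, given as a batch in the series record.

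All 4 groups shared the cell line and the serum-free bronchial medium on collagen-coated plates, and the particles of both treated groups were extracted in water from filters of Beijing air. Cells of the repeated protocol were plated at a lower density, washed between daily treatments and collected on day 7. The labels give 7 daily exposures, whereas the methods give 6. Concentration, number of exposures, culture time, plating density and washing all differed between the protocols and cannot be told apart in this difference. The cells are a single line grown alone, without the other cell types of the airway.

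Constituents of PM2.5 reach several sensors in airway epithelial cells. Polyaromatic hydrocarbons bind the aryl hydrocarbon receptor (AhR), which enters the nucleus and activates genes of xenobiotic metabolism, and oxidants release NRF2 from its inhibitor KEAP1, after which NRF2 drives antioxidant and glutathione genes. Shortage of amino acids or misfolded protein leads through ATF4 to genes of amino acid synthesis and cell death, while MondoA, a sensor of glucose phosphates, drives the alpha-arrestins TXNIP and ARRDC4, which limit glucose uptake.

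Library depth on genes ran from 21460981 to 34724765 counts. Levels are given in CPM, the counts scaled to a common library size, and 3 counts in a library, taken as the floor, equalled 0.0864 to 0.140 CPM, which covers counting error only. The epithelial keratin KRT7 stood at 598 to 1770 CPM across these libraries, whereas the leukocyte genes PTPRC and LYZ and the secretory cell gene SCGB1A1 had 0 counts and the endothelial gene CDH5 at most 2. Other markers of these cell types were detected at low levels, the monocyte gene CD14 at 2.3 to 15.8 CPM, the leukocyte integrin gene ITGAM at up to 74 counts, and the endothelial receptor genes KDR and TIE1 at up to 77 and 31 counts. In the list for secretory or ciliated airway cells, MUC5AC, MUC5B and FOXJ1 reached 12, 3 and 5 counts. The tubulin gene TUBA1A of the same list was higher, at 12.8 to 81.5 CPM. Libraries of experiment 2 in the 24-h protocol stood apart. Their counts differed from those of the same group by 76.6 to 177 times the variance that counting alone gives, against 18.1 times between experiments 1 and 3 in the controls and 4.44 times with 30 µg/cm2. In the repeated protocol the controls differed by 4.32 to 5.10 times, and the PM2.5 library of experiment 3 differed from the others by 19.7 and 25.5 times. The experiment number was kept as a replicate block within each protocol, and counts are also given without the block and without 24-h experiment 2.

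A gene was called at an absolute log2 change of 0.6 or more with p below 0.05 in edgeR's quasi-likelihood test after Benjamini-Hochberg adjustment. The difference between the responses was called in 2572 genes (14.6% of those tested). The repeated response was higher in 1195 genes (6.79%) and lower in 1377 (7.82%). These shares are the background for the count of called members in each gene list. The single high response alone had 2681 called genes (15.2%), of which 1296 rose (7.36%) and 1385 fell (7.87%), and the repeated response had 773 (4.39%), of which 282 rose (1.6%) and 491 fell (2.79%). Without the replicate block the difference was called in 320 genes and the repeated response in 40, and without 24-h experiment 2 the counts were 4272 and 1353.

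Most genes called in one response were not called in the other. Of the 3207 genes called in either response, 2434 were called in the single high response only and 526 in the repeated response only. The 197 genes that changed in the same direction in both made up 25.5% of the repeated calls and 7.35% of the high calls, and 66 of them rose and 131 fell. The difference was called in 51 of these 197 genes, and the high response was the larger in all 51. A further 50 genes changed in opposite directions, 41 of them higher after 30 µg/cm2 and lower after repeated exposure. The difference was called in 1360 of the 2434 high-only genes and in 264 of the 526 repeated-only genes, so the others passed the thresholds in one response without a called difference from the other. In another 847 genes the difference was called although neither response was.

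**Figure D1:**
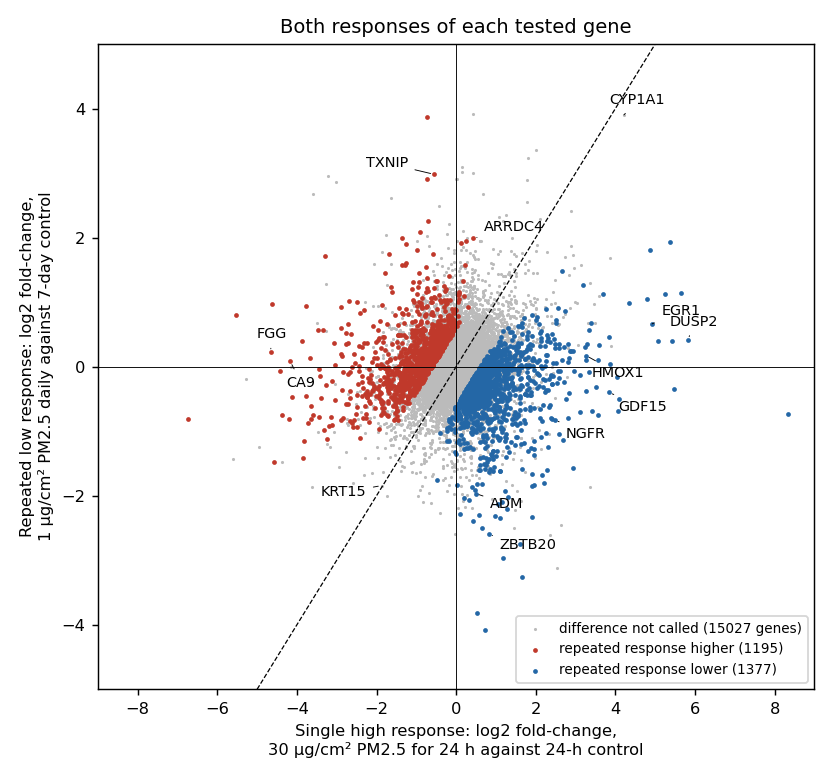
Each point is a tested gene, with its log2 fold-change in the single high response on the x axis and in the repeated low response on the y axis. Red and blue mark the 1195 genes with a higher and the 1377 with a lower repeated response, and CYP1A1 has similar values on both axes (4.21 and 3.90), whereas TXNIP is high on the y axis only (2.98) and EGR1 on the x axis (4.93).

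Genes that rose after 30 µg/cm2 had a median log2 change of 1.05 there and of 0.07 in the repeated response, in which 57.6% of them were above 0, against 50.8% of all tested genes. Genes that fell after 30 µg/cm2 had medians of -0.98 and -0.20, and 70.3% of them were below 0 in the repeated response, against 49.2% of all genes. Across all tested genes, which are not independent replicates, Pearson's r between the responses was 0.09, and it was 0.20 across the genes called in either. Both responses had the same sign in 9183 genes (52.2%). The 3 changes within experiments did not overlap between the protocols in 7012 genes (39.8%). In 5141 genes (29.2%) the 95% confidence interval of the difference lay wholly within 0.6 on either side of 0.

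The AhR target genes responded in both protocols, and none of the 5 tested had a called difference, against 14.6% of all genes. With 5 genes, a count of 0 does not set the list apart from that background. CYP1A1 and CYP1B1, which oxidize polyaromatic hydrocarbons, the AhR repressor AHRR and TIPARP, an ADP-ribosyltransferase that limits AhR, rose in both responses. The remaining gene, the aldehyde dehydrogenase ALDH3A1, was not called in either, with log2 changes of 0.09 after 30 µg/cm2 and 0.81 after repeated exposure. CYP1A1 stood at 1.29, 0.565 and 1.45 CPM in the 24-h controls of experiments 1, 2 and 3 and at 13.4, 42.9 and 12.9 CPM with 30 µg/cm2. In the repeated protocol it stood at 2.89, 2.76 and 0.941 CPM in the controls and at 32.2, 30.5 and 32.1 CPM after exposure. Treated libraries were above all controls in both protocols, and the changes of the protocols overlapped. The log2 difference of CYP1A1 was -0.31 ± 0.79 (SE, edgeR adjusted p = 0.816), with a 95% confidence interval from -2.02 to 1.39, which is wide.

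Intervals were narrower for the other AhR genes. AHRR rose from 3.62 ± 0.409 to 10.4 ± 1.32 CPM (mean ± SD, n = 3) after 30 µg/cm2 and from 5.76 ± 1.54 to 14.9 ± 1.02 CPM after repeated exposure, with a log2 difference of -0.11 and an interval from -0.63 to 0.41. CYP1B1 rose from 222 ± 39.4 to 827 ± 31.2 CPM and from 79.4 ± 5.22 to 218 ± 22.2 CPM, and the interval of its difference ran from -0.88 to -0.06 (edgeR adjusted p = 0.0946). The interval of TIPARP ran from -0.88 to -0.17, and its log2 difference of -0.53 (edgeR adjusted p = 0.0377) was short of the threshold of 0.6. Without 24-h experiment 2 ALDH3A1 alone was called in this list, at 1.65. Leaving out any 1 library gave at most 1 called gene in the list. CYP1B1 and AHRR lie over other genes (RMDN2 and PDCD6), so their counts are uncertain to that extent.

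The promoter of AHRR (RefSeq, GRCh38.p14, chr5:321464-321763, plus strand) is shown because this repressor rose in both responses. Capitals mark a match to the core of the xenobiotic response element, TNGCGTG on either strand, that begins at position -32 from the start. Such a match was found in 1 of the 4 AhR genes with a promoter entry and in 7.09% of the 12096 promoters of tested genes.
AHRR: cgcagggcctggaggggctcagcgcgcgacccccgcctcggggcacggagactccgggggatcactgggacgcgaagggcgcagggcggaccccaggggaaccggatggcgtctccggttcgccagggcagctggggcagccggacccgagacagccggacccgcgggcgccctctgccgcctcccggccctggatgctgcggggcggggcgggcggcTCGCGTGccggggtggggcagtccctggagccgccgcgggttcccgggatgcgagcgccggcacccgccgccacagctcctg

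NRF2 target genes rose with 30 µg/cm2 and not after repeated exposure. Of 30 tested genes, 21 had a lower repeated response and 0 a higher one, against 7.82% and 6.79% of all genes. After 30 µg/cm2, 20 of the 30 rose and none fell, with a median log2 change of 1.36. After repeated exposure none rose and the pentose phosphate enzyme gene TKT fell, with a median of 0.06. Haem oxygenase 1 (HMOX1), which breaks down haem, stood at 23.7, 40.7 and 26.5 CPM in the 24-h controls and at 341, 167 and 354 CPM with 30 µg/cm2. It stood at 10.8, 10.2 and 9.29 CPM in the controls of the repeated protocol and at 12.02, 10.6 and 11.5 CPM after exposure. The high-dose libraries were all above the others, and the groups of the repeated protocol overlapped. The log2 difference of HMOX1 was -3.09 ± 0.39 (SE, edgeR adjusted p = 0.000366).

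The same held for genes of thioredoxin reduction, glutathione synthesis and iron storage. TXNRD1, which reduces thioredoxin, rose from 333 ± 46.4 to 1723 ± 666 CPM with 30 µg/cm2, with a log2 change of 0.09 in the repeated protocol and a difference of -2.18. For GCLC and GCLM, the subunits of glutamate-cysteine ligase, the differences were -2.43 and -1.38. The change of GCLM in log2 CPM was 0.10, 0.09 and 0.05 in the repeated experiments and 1.34, 1.56 and 1.45 with 30 µg/cm2, so the protocols did not overlap. The ferritin chain genes FTL and FTH1 differed by -2.70 and -2.37, the cystine transporter gene SLC7A11 by -2.92 and the quinone reductase gene NQO1 by -1.79. TKT stood at 845, 796 and 857 CPM in the controls and at 599.8, 557 and 348 CPM after repeated exposure. Among the 9 genes without a called difference, the peroxiredoxin gene PRDX1 had log2 changes of -0.03 and 0.44 in the high and repeated responses, and AKR1B10 of -0.48 and -0.40. Without the replicate block 12 NRF2 genes had a lower repeated response, HMOX1 and TXNRD1 among them, and without 24-h experiment 2 there were 22, with PRDX1 higher at 0.78.

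Promoters of TXNRD1 (RefSeq, GRCh38.p14, chr12:104215529-104215828, plus strand) and GCLM (chr1:93909381-93909680, minus strand) are shown because both genes rose in every 24-h experiment. Capitals mark matches to the core of the antioxidant response element, TGACNNNGC on either strand, at -99 and -8 in TXNRD1 and at -34 in GCLM. This core was found in 6 of 21 NRF2 genes with a promoter entry (PGD, GCLM, ME1, TXNRD1, CBR1 and PIR) and in 15.1% of the promoters of tested genes, and PGD, ME1 and CBR1 were called in neither response.
TXNRD1: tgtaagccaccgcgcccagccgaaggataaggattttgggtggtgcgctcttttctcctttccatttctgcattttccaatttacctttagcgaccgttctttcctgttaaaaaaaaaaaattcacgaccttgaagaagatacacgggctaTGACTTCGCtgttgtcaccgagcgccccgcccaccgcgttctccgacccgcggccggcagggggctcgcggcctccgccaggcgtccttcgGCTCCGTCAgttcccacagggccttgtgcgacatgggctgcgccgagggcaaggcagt
GCLM: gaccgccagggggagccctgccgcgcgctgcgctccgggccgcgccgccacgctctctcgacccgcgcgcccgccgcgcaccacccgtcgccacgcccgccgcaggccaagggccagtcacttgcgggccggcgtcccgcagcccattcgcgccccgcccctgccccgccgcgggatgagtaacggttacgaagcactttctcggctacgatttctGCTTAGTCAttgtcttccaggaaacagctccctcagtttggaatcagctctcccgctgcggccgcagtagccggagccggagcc

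In ATF4 and CHOP stress genes the repeated response was lower in 13 of 23 tested genes and higher in none, against 7.82% and 6.79% of all genes. After 30 µg/cm2, 19 of the 23 rose, with a median log2 change of 1.34, and after repeated exposure PSAT1, an enzyme of serine synthesis, and the secreted glycoprotein gene STC2 rose, with a median of 0.34 over the list. GDF15, a stress-induced cytokine, stood at 15.5, 28.2 and 16.7 CPM in the 24-h controls and at 327, 137 and 352 CPM with 30 µg/cm2. After culture in the repeated protocol it stood at 188, 166 and 197 CPM in the controls and at 166, 141 and 115 CPM after exposure. The controls of the repeated protocol were all above those at 24 h, and the log2 difference of GDF15 was -4.24 ± 0.53 (SE, edgeR adjusted p = 0.000334).

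Asparagine synthetase (ASNS) and DDIT3, which encodes CHOP, also had higher levels in the controls of the repeated protocol than at 24 h. ASNS stood at 88.1, 435 and 103 CPM in the 24-h controls and at 744, 953 and 805 CPM with 30 µg/cm2. It stood at 653, 615 and 641 CPM in the repeated controls and 786, 779 and 863 CPM after repeated exposure. The difference was -2.13 for ASNS and -2.66 for DDIT3, and the control of 24-h experiment 2 had the highest level of the 24-h controls for both. ATF3, a stress-induced repressor, had log2 changes of 1.37 and 1.04 in the high and repeated responses, of which only the first was called, and a difference of -0.33 with an interval from -1.38 to 0.72. Without the replicate block only GDF15 and ALDH1L2 had a called difference in this list, and without 24-h experiment 2 there were 19 lower.

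The promoter of ASNS (RefSeq, GRCh38.p14, chr7:97872359-97872658, minus strand) is shown for its place in amino acid synthesis. Capitals mark a match to the core of the CEBP-ATF response element, TGATGNAA on either strand, at -68 from the start, which was found in 4 of 19 listed genes with an entry (ATF3, ASNS, SLC3A2 and CHAC1) and in 1.75% of the promoters of tested genes.
ASNS: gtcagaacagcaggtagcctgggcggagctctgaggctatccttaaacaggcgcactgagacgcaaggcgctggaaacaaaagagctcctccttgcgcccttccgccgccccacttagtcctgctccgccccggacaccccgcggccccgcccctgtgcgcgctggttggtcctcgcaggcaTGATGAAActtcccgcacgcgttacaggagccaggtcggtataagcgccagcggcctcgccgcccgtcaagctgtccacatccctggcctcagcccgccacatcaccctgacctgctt

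**Figure D2:**
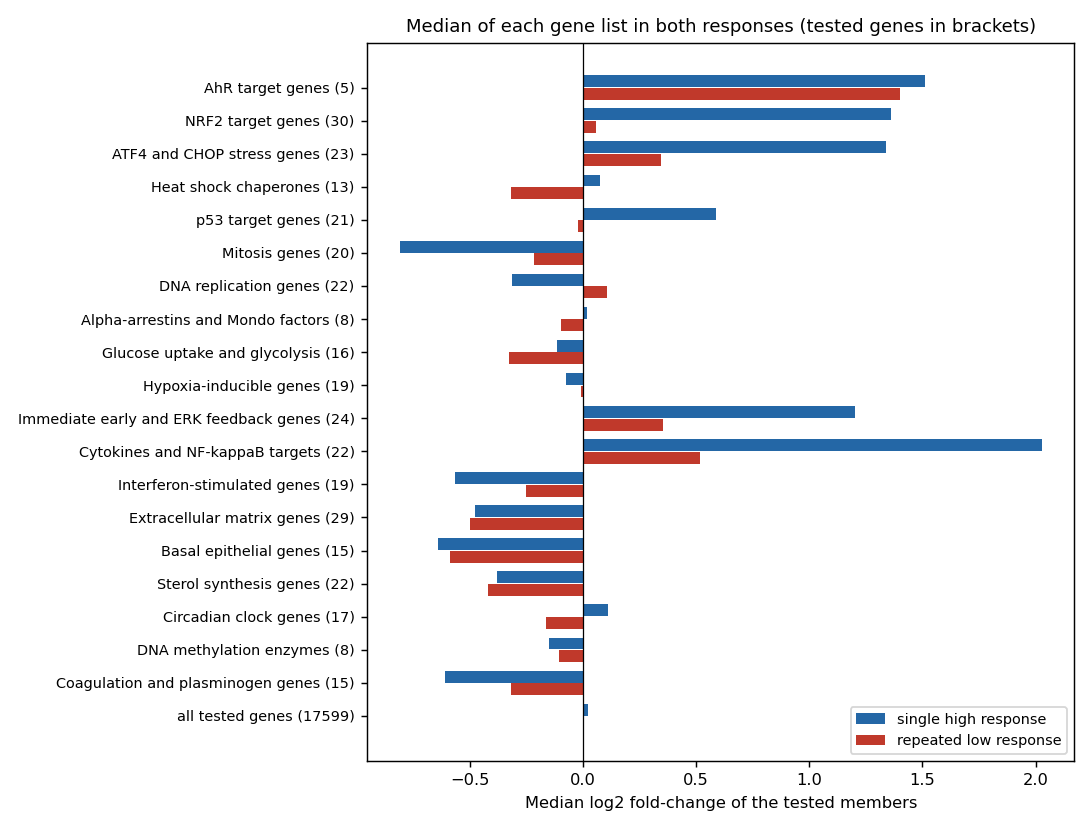
Median log2 fold-change of the tested members of each gene list in the single high response (blue) and the repeated low response (red). The NRF2 list has medians of 1.36 and 0.06, the AhR list of 1.51 and 1.40, and all tested genes of 0.02 and 0.01.

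Targets of p53, the transcription factor that answers DNA damage, were lower in the repeated response in 7 of 21 tested genes (against 7.82% of all genes) and higher in none. After 30 µg/cm2, 10 of the 21 rose, and after repeated exposure none was called. CDKN1A, which encodes the cell cycle inhibitor p21, rose from 209.7 ± 57.3 to 638 ± 141 CPM with 30 µg/cm2 and stood at 349 ± 8.49 and 349 ± 40.5 CPM in the repeated protocol. The log2 difference was -1.65 ± 0.28 (SE, edgeR adjusted p = 0.00206) for CDKN1A and -1.11 for MDM2, the ubiquitin ligase that degrades p53. For CCNG1 and TIGAR the differences were 0.00 and 0.01, with intervals from -0.32 to 0.33 and from -0.23 to 0.25. CDKN1A, MDM2 and GADD45A were also called without the replicate block. The count of lower genes was 11 without the control library of 24-h experiment 2 and 12 without its 30 µg/cm2 library.

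Among 13 heat shock genes, the repeated response was lower in 3 (against 7.82% of all genes) and higher in none, and none was called without the replicate block. Without the control or the 30 µg/cm2 library of 24-h experiment 2, 1 and 2 were higher. HSPA6, an inducible HSP70 gene, stood at 0.211, 0.141 and 0.425 CPM in the 24-h controls and at 16.5, 4.61 and 17.3 CPM with 30 µg/cm2. Its levels in the repeated protocol were 0.456, 0.45 and 0.565 CPM in the controls and 0.778, 0.404 and 2.43 CPM after exposure, where the groups overlapped. Its log2 difference was -4.51, with an edgeR adjusted p of 0.0545 without the replicate block. The co-chaperone gene DNAJB1 and HSPA4L differed by -0.65 and -0.64. HSPB1, a small heat shock protein gene, fell in both responses, with log2 changes of -0.67 and -0.73.

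Immediate early genes, which growth factor and stress signalling switch on, and feedback inhibitors of ERK were lower in the repeated response in 10 of 24 tested genes and higher in DUSP1, against 7.82% and 6.79% of all genes. After 30 µg/cm2, 16 of the 24 rose and DUSP1, a phosphatase of MAP kinases, fell, and after repeated exposure JUN and IER2 rose and DUSP10 fell. The transcription factor gene EGR1 stood at 27.9, 17.6 and 25.4 CPM in the 24-h controls and at 1072, 230.1 and 1112 CPM with 30 µg/cm2. In the repeated protocol it stood at 45.4, 43.7 and 42.7 CPM in the controls and at 67.99, 63.1 and 78.6 CPM after exposure. Every treated library was above its controls in both protocols, but the repeated change did not pass the test (log2 change 0.66, edgeR adjusted p = 0.1698). The log2 difference was -4.26 ± 0.45 (SE, edgeR adjusted p = 0.000151) for EGR1 and -5.41 for the ERK phosphatase gene DUSP2, which had a mean of 20.9 CPM with 30 µg/cm2 and of 0.357, 0.543 and 0.694 CPM in the 24-h controls and in the controls and treated libraries of the repeated protocol.

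JUN, a subunit of AP-1, rose in both. Its levels were 61.7, 17.7 and 62.1 CPM in the 24-h controls and 98.8, 48.4 and 100.3 CPM with 30 µg/cm2. They were 29.6, 24.5 and 25.6 CPM in the repeated controls and 61.4, 55.7 and 129 CPM after repeated exposure. In each experiment the treated library was above its control, with log2 changes of 0.91 and 1.52, and the difference of 0.61 was not called (interval from -0.04 to 1.26, edgeR adjusted p = 0.164). DUSP10, another MAP kinase phosphatase gene, stood at 12.2, 10.1 and 13.4 CPM in the controls of the repeated protocol and at 5.57, 4.65 and 4.74 CPM after exposure, and it had a difference of -1.60. EGR1, DUSP2, DUSP10 and JUNB were also called without the replicate block. DUSP1 had no called difference without the control library of 24-h experiment 1 or without any 1 library of the repeated protocol.

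Cytokines and targets of NF-kappaB, a main inflammatory transcription factor, rose in part in both protocols. Of 22 tested genes, 15 rose after 30 µg/cm2 and 6 after repeated exposure, and the repeated response was lower in 13 and higher in the chemokine gene CXCL14, against 7.82% and 6.79% of all genes. The 6 that rose after repeated exposure were IL1A, IL24, CXCL2, CXCL3, TSLP and PTX3, and all of these also rose after 30 µg/cm2. The interleukin gene IL1A stood at 4.94, 1.84 and 5.35 CPM in the 24-h controls and at 29.3, 13.8 and 33.1 CPM with 30 µg/cm2. It stood at 3.15, 2.31 and 4.33 CPM in the repeated controls and 6.32, 6.87 and 15.3 CPM after repeated exposure. The treated libraries were above the controls in both protocols, and the difference was -1.17 ± 0.24 (SE, edgeR adjusted p = 0.005699).

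The interleukin 6 family genes LIF and IL11 rose with 30 µg/cm2 and had log2 differences of -2.94 and -3.27, with repeated changes of 0.35 and -0.50 that were not called. For CXCL2 and CXCL3, chemokines that attract neutrophils, the differences were -0.52 and -0.98 and were not called. IL6 had log2 changes of 0.45 and 1.24 and PTGS2, which encodes an inducible cyclooxygenase, of 1.02 and 1.15, and neither passed the test in either response. CXCL14 stood at 0.271, 4.76 and 0.354 CPM in the 24-h controls and at 0.0986, 0.0694 and 0 CPM with 30 µg/cm2, at the floor, so its fitted difference is no bound, and it was not called without 24-h experiment 2, nor without the 30 µg/cm2 library of 24-h experiment 3 or either library of repeated experiment 3. Leaving out 24-h experiment 2 gave 13 lower listed genes, and CXCL1, IL6 and CCL2 were higher. Without the replicate block 7 were lower, which were IL24, CCL20, PTX3, TNFAIP3, ICAM1, IL11 and LIF.

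Mitosis genes fell after 30 µg/cm2 in 16 of 20 tested genes and in none after repeated exposure, and 9 had a higher repeated response, against 6.79% of all genes. Cyclin B1 (CCNB1), which drives entry into mitosis, stood at 537, 763 and 611 CPM in the 24-h controls and at 229, 497 and 245 CPM with 30 µg/cm2. It stood at 290.4, 276 and 263 CPM in the repeated controls and 289, 275 and 281 CPM after repeated exposure. The high-dose libraries were lower than their controls in every experiment, and the groups of the repeated protocol overlapped. The log2 difference was 1.07 ± 0.18 (SE, edgeR adjusted p = 0.00203). KIF20A, a kinesin of cytokinesis, had the lowest high response of this list, from 379 ± 41.04 to 132 ± 37.8 CPM, and stood at 182 ± 0.5398 and 127 ± 8.84 CPM in the repeated protocol, with a difference of 1.01. The proliferation marker gene MKI67 and the centromere gene CENPF had repeated log2 changes of -0.49 and -0.52, which were not called.

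Controls of the repeated protocol had lower levels of CCNB1 and KIF20A than the 24-h controls, and the part of this in the difference was not tested. Without the replicate block only KIF23 had a called difference among the mitosis genes, and without 24-h experiment 2 there were 12. The count of 9 became 5 without the control or PM2.5 library of repeated experiment 2 or the 30 µg/cm2 library of 24-h experiment 3, and 15 without the 30 µg/cm2 library of 24-h experiment 2. Among 22 DNA replication genes none was called in either response and 3 were higher in the repeated response (against 6.79% of all genes), the replication clamp gene PCNA (difference 0.74), the GINS subunit gene GINS2 (0.64) and the flap endonuclease gene FEN1 (0.67). PCNA had changes in log2 CPM of 0.39, 0.44 and 0.44 in the repeated experiments and of -0.36, -0.07 and -0.52 in the 24-h experiments. None of the 22 differences was called without the replicate block, nor with library offsets adjusted for gene length, and 1 was called without the control library of 24-h experiment 3.

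**Figure D3:**
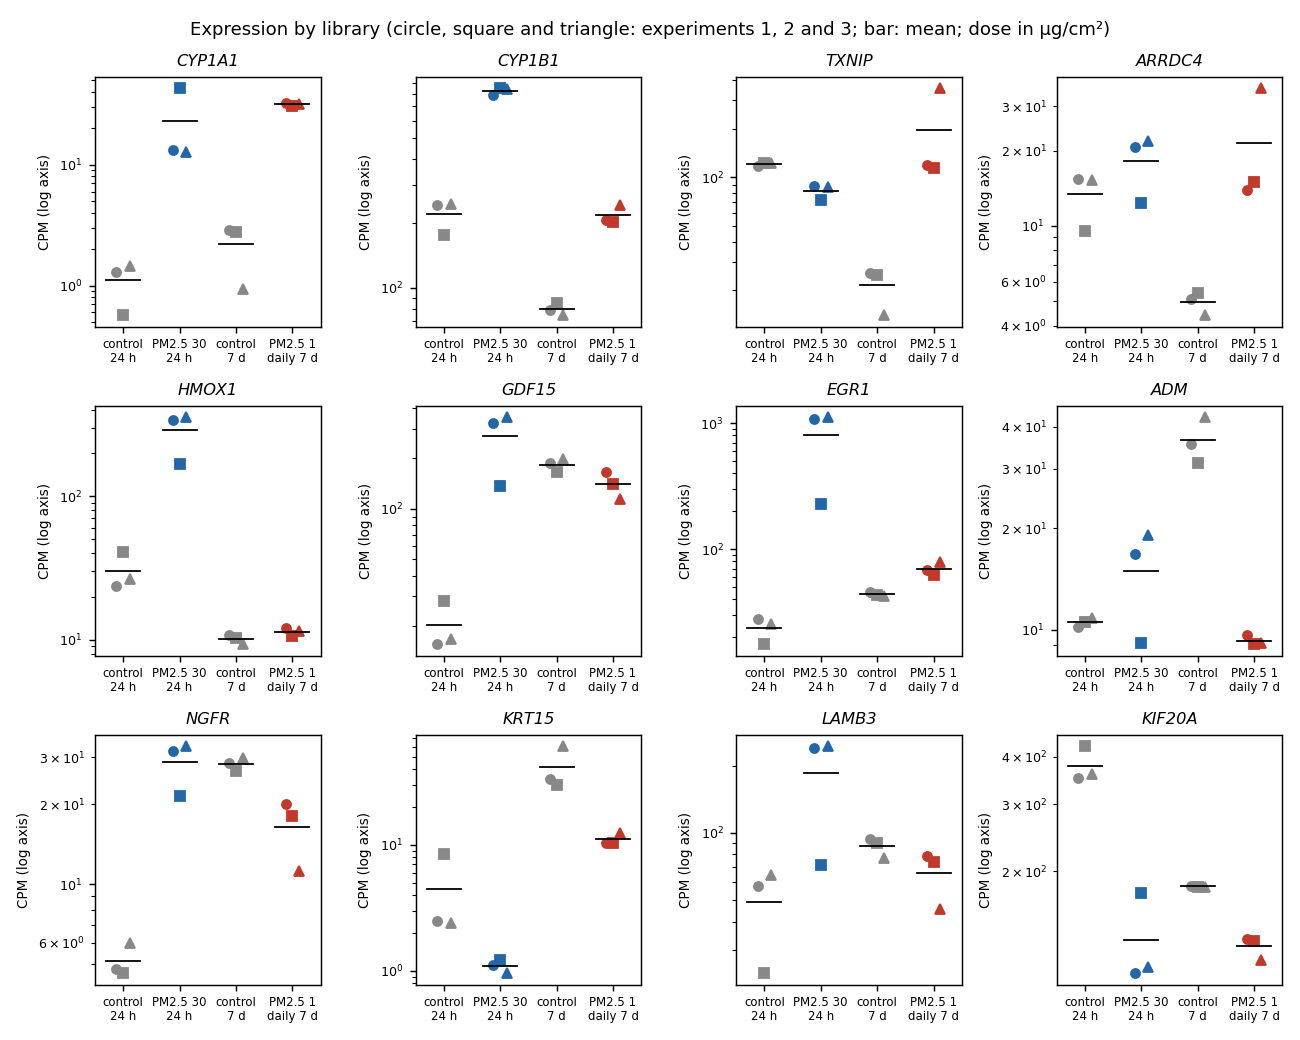
Expression of 12 genes in CPM on a log axis, with a panel for each gene, the 4 groups on the x axis and a point for each library (experiments 1, 2 and 3). EGR1 and HMOX1 rise with 30 µg/cm2, TXNIP and ARRDC4 rise and ADM falls after repeated exposure, and 24-h experiment 2 lies apart in EGR1, which stood at 1072, 230.1 and 1112 CPM with 30 µg/cm2.

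TXNIP and ARRDC4 rose after repeated exposure and were not called after 30 µg/cm2. Of the 8 tested genes of alpha-arrestins and Mondo factors, these 2 had a higher repeated response and ARRDC3 a lower one, against 6.79% and 7.82% of all genes. TXNIP stood at 117, 123 and 123 CPM in the 24-h controls and at 88.1, 71.9 and 87.1 CPM with 30 µg/cm2. In the repeated protocol it stood at 25.7, 24.8 and 13.96 CPM in the controls and at 119, 114 and 355 CPM after exposure. Treated libraries were below the controls at 24 h and above them in the repeated protocol, and the controls of the repeated protocol were below those at 24 h. The log2 difference was 3.53 ± 0.50 (SE, edgeR adjusted p = 0.000758), and it ranged from 2.75 to 3.98 across all alternatives, in each of which it was called.

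ARRDC4 stood at 5.09, 5.399 and 4.39 CPM in the controls of the repeated protocol and at 13.97, 14.99 and 35.4 CPM after exposure. At 24 h it stood at 15.4, 9.56 and 15.3 CPM in the controls and at 20.6, 12.3 and 21.7 CPM with 30 µg/cm2. Experiment 3 had the largest rise of both genes, with changes in log2 CPM of 2.21, 2.20 and 4.66 for TXNIP and 1.44, 1.46 and 2.99 for ARRDC4 in the repeated experiments 1, 2 and 3. The difference of ARRDC4, 1.56, had an edgeR adjusted p of 0.0922 without the replicate block. For ARRDC3 the log2 change was 0.55 after 30 µg/cm2 and -0.50 after repeated exposure, with a difference of -1.04. The Mondo factors and their partner, MLXIP, MLXIPL and MLX, had repeated changes of -0.14, 0.19 and -0.33, none called.

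The promoter of TXNIP (RefSeq, GRCh38.p14, chr1:145996530-145996829, minus strand) is shown because TXNIP carries the main repeated-only rise of this list. Capitals mark a match to the carbohydrate response element, searched on either strand, at -88 from the start. Among the 8 genes of this list, all with a promoter entry, TXNIP alone held a match, as did 0.802% of the promoters of tested genes.
TXNIP: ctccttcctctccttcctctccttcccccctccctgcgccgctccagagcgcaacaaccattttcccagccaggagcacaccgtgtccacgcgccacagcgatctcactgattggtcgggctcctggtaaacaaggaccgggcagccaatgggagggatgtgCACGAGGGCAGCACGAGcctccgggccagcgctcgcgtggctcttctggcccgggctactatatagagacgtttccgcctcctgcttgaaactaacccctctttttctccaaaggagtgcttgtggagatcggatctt

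Glucose uptake and glycolysis genes were split between the responses. The glucose transporter gene SLC2A1, HK2, PFKM and ALDOA fell after repeated exposure, whereas LDHA, PGAM1, PGK1 and PKM fell and PFKP rose after 30 µg/cm2. Of the 16 tested genes the repeated response was lower in 5 and higher in 3, against 7.82% and 6.79% of all genes. The lower count was 3 without either library of 24-h experiment 2 or of repeated experiment 3. SLC2A1 stood at 133, 129 and 134 CPM in the 24-h controls and at 156, 132 and 158 CPM with 30 µg/cm2. It stood at 210.4, 206 and 243 CPM in the repeated controls and 147, 139.5 and 123 CPM after repeated exposure. The groups overlapped at 24 h and not in the repeated protocol, and the log2 difference was -0.86 ± 0.13 (SE, edgeR adjusted p = 0.00127). Lactate dehydrogenase A (LDHA) had a difference of 1.32, with a fall from 1181 ± 262 to 499.5 ± 146 CPM at 24 h and levels of 424 ± 21.2 and 451 ± 81.3 CPM in the repeated protocol. SLC2A1, PGAM1 and LDHA were also called without the replicate block.

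Hypoxia-inducible genes did not move together in either response, with 4 lower and 3 higher of 19 in the repeated response, against 7.82% and 6.79% of all genes. The vasodilator peptide gene ADM stood at 35.6, 31.2 and 42.6 CPM in the controls of the repeated protocol and at 9.62, 9.04 and 9.11 CPM after exposure. At 24 h it stood at 10.2, 10.5 and 10.8 CPM in the controls and at 16.7, 9.12 and 19.1 CPM with 30 µg/cm2. ADM fell after repeated exposure, with a log2 change of -1.97, and the groups overlapped at 24 h. The difference was -2.45 ± 0.30 (SE, edgeR adjusted p = 0.000279). Carbonic anhydrase 9 (CA9) fell from 5.92 ± 1.81 to 0.343 ± 0.0689 CPM with 30 µg/cm2 and had changes in log2 CPM of -0.73, -0.02 and 0.89 in the repeated experiments. NDRG1, a stress-responsive gene, and the angiogenic factor gene VEGFA rose with 30 µg/cm2 and had differences of -2.51 and -1.18. ADM, CA9, NDRG1, VEGFA and BNIP3L were called without the replicate block too.

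Laminin chains, adhesive proteins of the epithelial basement membrane, included a gene that changed in opposite directions. LAMA3 stood at 140.4, 51.2 and 113 CPM in the 24-h controls and at 212, 84.9 and 208 CPM with 30 µg/cm2. It stood at 139, 148 and 139 CPM in the repeated controls and 78.6, 85.7 and 85.4 CPM after repeated exposure. In every experiment the treated library was above its control at 24 h and below it in the repeated protocol, with log2 changes of 0.74 and -0.77. The difference was -1.51 ± 0.16 (SE, edgeR adjusted p = 0.000161), with an adjusted p of 0.276 in edgeR without the replicate block. LAMB3 rose with 30 µg/cm2 (1.87) and had a repeated change of -0.43 that was not called. Tenascin C (TNC), a matrix protein of injured tissue, had changes of 1.05 and -1.11 and a difference of -2.16 that was also called without the block.

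Of all 29 tested extracellular matrix genes, the laminins and TNC included, 13 fell and 5 rose after 30 µg/cm2, 9 fell and none rose after repeated exposure, and the repeated response was higher in 9 and lower in 6, against 6.79% and 7.82% of all genes. The matrix glycoprotein gene EFEMP1 fell from 1162 ± 264 to 251 ± 18.9 CPM with 30 µg/cm2, against 304 ± 14.4 and 211 ± 5.01 CPM in the repeated protocol, with a difference of 1.67. The crosslinking enzyme gene LOX fell in both responses, with log2 changes of -1.80 and -0.64. COL5A1 fell in both, with changes in log2 CPM of -0.83, -1.17 and -0.85 at 24 h and -0.83, -0.88 and -0.83 in the repeated protocol and a difference of 0.11 (interval from -0.18 to 0.39). FN1, which encodes fibronectin, fell in the repeated protocol and had a difference of -0.92. The summed level of 6 fibroblast markers was 454 to 750 CPM in the 24-h controls and 330 to 476 with 30 µg/cm2, and 305 to 347 in the repeated controls and 211 to 298 CPM after repeated exposure, with none at 0, and its part in these results was not tested.

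Genes of basal epithelial cells were lower in part in both responses. After 30 µg/cm2, 7 of 15 fell, against 7.87% of all genes. After repeated exposure 7 fell and the keratin gene KRT6B rose, against 2.79% and 1.6% of all genes. The repeated response was higher in 1 of the 15, KRT5, and lower in 1, against 6.79% and 7.82% of all genes. KRT5, the main keratin of basal cells, stood at 714, 755 and 774 CPM in the 24-h controls and at 110.4, 173 and 123 CPM with 30 µg/cm2. It stood at 866, 812 and 1072 CPM in the repeated controls and 465, 420.2 and 560.3 CPM after repeated exposure. Both groups of treated libraries were below their controls, and the difference was 1.56 ± 0.16 (SE, edgeR adjusted p = 0.000108), called also without the block. KRT15 fell in both, with -1.87 and -1.84, and had a difference of 0.02 with an interval from -0.64 to 0.69. The basal transcription factor gene TP63 had changes of -0.64 and -0.98, with a difference of -0.34 that was not called. The summed level of 8 epithelial markers, KRT5 and TP63 among them, was 3570 to 3850 CPM in the 24-h controls and 1570 to 2330 with 30 µg/cm2, and 3200 to 3700 in the repeated controls and 2130 to 2400 CPM after repeated exposure, and its part in these results was not tested. In bulk libraries fewer cells with a marker and less of its RNA per cell cannot be told apart.

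In coagulation and plasminogen genes the repeated response was lower in 3 and higher in 2 of 15 tested genes, against 7.82% and 6.79% of all genes. The tissue factor gene F3, whose product starts clotting, stood at 82.9, 28.1 and 94 CPM in the 24-h controls and at 162, 75.5 and 169 CPM with 30 µg/cm2. It stood at 32.99, 32.7 and 36.9 CPM in the repeated controls and 20.3, 19.9 and 23.7 CPM after repeated exposure. F3 rose at 24 h (1.07) and fell in the repeated protocol (-0.69), in every experiment, and its difference of -1.76 was not called without the replicate block. FGG, a fibrinogen chain gene, stood at 3.52, 7.58 and 3.19 CPM in the 24-h controls and 0, 0.555 and 0.0479 CPM with 30 µg/cm2, and at 0.404 ± 0.02396 and 0.474 ± 0.132 CPM in the repeated protocol. FGB was at the floor in 1 or more groups, so its fitted difference is no bound, and it was not called without either library of repeated experiment 1. PLAU, which encodes urokinase, fell in both, with -0.80 and -0.79 and a difference of 0.01 (interval from -0.30 to 0.32).

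Interferon-stimulated genes fell mainly with 30 µg/cm2. Of 19 tested genes, 8 fell and XAF1 rose at 24 h, IFI44L and OAS2 fell after repeated exposure, and the repeated response was higher in 5 and lower in XAF1, against 6.79% and 7.82% of all genes. IFI44L stood at 15.4, 24.9 and 12.5 CPM in the 24-h controls and at 1.97, 4.23 and 2.203 CPM with 30 µg/cm2. It stood at 58.9, 59.3 and 78.5 CPM in the repeated controls and 30.4, 29.3 and 53.8 CPM after repeated exposure. All treated libraries were below their controls, and the difference was 1.83 ± 0.18 (SE, edgeR adjusted p = 0.000104). Only IFI44 had a called difference in this list without the replicate block, and 9 were higher and 2 lower without 24-h experiment 2. The count of 5 became 3 without any 1 library of the repeated protocol, without the 24-h control of experiment 1 or 3 or without the 30 µg/cm2 library of experiment 3, and 8 without the control of 24-h experiment 2.

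Among 22 sterol synthesis genes, 6 fell after 30 µg/cm2 and 5 after repeated exposure, against 7.87% and 2.79% of all genes. The repeated response was lower in 2 of them, among these the demethylase gene CYP51A1 with a difference of -0.71, against 7.82% of all genes. It was higher in LSS and PMVK, with 0.96 and 0.76, against 6.79% of all genes. Leaving out 1 library at a time gave 0 to 6 higher sterol genes. None of the 22 was called without the replicate block.

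Clock genes differed in few members. BHLHE40, a repressor of the clock, stood at 42.9, 28.1 and 46.1 CPM in the 24-h controls and at 109, 55.1 and 113 CPM with 30 µg/cm2. It stood at 64.3, 60.4 and 60.4 CPM in the repeated controls and 39.5, 39.8 and 34.9 CPM after repeated exposure. It rose at 24 h and fell in the repeated protocol in every experiment, and its difference was -1.90 ± 0.14 (SE, edgeR adjusted p = 1.34e-05). The repressor gene NR1D1, which overlaps THRA, had the same directions, with changes of 0.66 and -1.09. Of the 17 tested clock genes 3 had a lower and 1 a higher repeated response, against 7.82% and 6.79% of all genes, and BHLHE40, NR1D1 and CRY1 were called without the block as well. The lower count was 5 without the control library of 24-h experiment 2. Among 8 enzymes of DNA methylation, the repeated response was lower in 1 and higher in 0, against 7.82% and 6.79% of all genes. This was the methyltransferase gene DNMT3A, with a difference of -0.71 that was not called without the block. TET1, which oxidizes methylcytosine, fell in both responses, with -0.63 and -0.65. TET2 and TET3 had repeated changes of -0.43 and -0.12, neither called. The paper reports increased expression of TET1, TET2 and TET3 after repeated exposure, so the fall of TET1 here runs the other way.

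**Figure D4:**
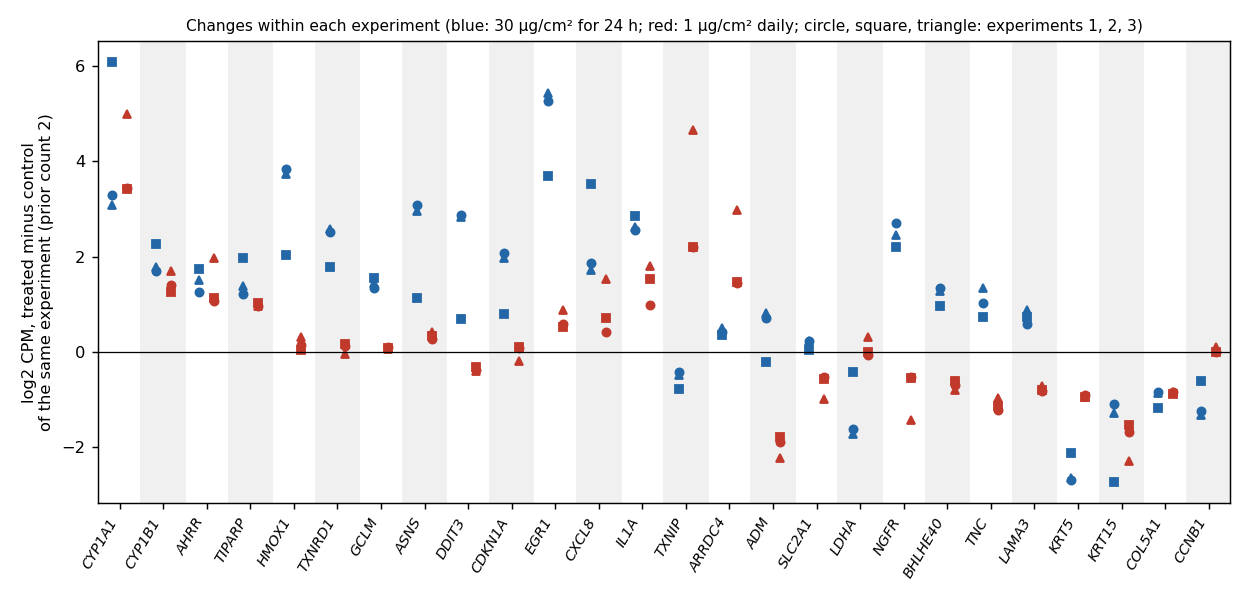
Points give the change in log2 CPM between the treated and the control library of the same experiment for 26 genes, for 30 µg/cm2 at 24 h (blue) and the repeated protocol (red). CYP1A1 and COL5A1 overlap between the protocols, whereas NGFR has changes of 2.71, 2.20 and 2.45 at 24 h and -0.52, -0.55 and -1.42 in the repeated experiments.

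Among the 50 genes called in both responses in opposite directions, the 10 with the largest differences were named. NGFR, a receptor for neurotrophins that is also found on basal cells, stood at 4.79, 4.62 and 5.99 CPM in the 24-h controls and at 31.8, 21.4 and 32.99 CPM with 30 µg/cm2. It stood at 28.7, 26.6 and 29.9 CPM in the repeated controls and 19.99, 18.1 and 11.2 CPM after repeated exposure. No treated library overlapped its controls, and the difference was -3.30 ± 0.24 (SE, edgeR adjusted p = 1.16e-05). SDCBP2, a syntenin gene, rose from 2.14 ± 0.295 to 10.3 ± 3.34 CPM and fell from 7.03 ± 0.789 to 3.43 ± 0.0566 CPM. KLHL11, an adaptor of a ubiquitin ligase, rose at 24 h (1.09) and fell in the repeated protocol (-1.61), and it stood at 6.89, 0.518 and 3.29 CPM in the 24-h controls, with experiment 2 the lowest. The other 7 had means under 3 CPM in all groups, and ENSG00000214708 and ENSG00000280027 among them were higher in the repeated response.

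The 12 largest higher and 12 largest lower differences, among genes at a mean of 1 CPM or more in a group and with no overlap of the changes, were led by large responses to 30 µg/cm2. The high response was below -3 in 11 of the 12 higher genes, the exception being TXNIP. They included the troponin genes TNNT2 and TNNI2, with falls from 36.4 ± 27.4 to 2.35 ± 2.36 CPM and from 19.5 ± 4.102 to 2.04 ± 1.66 CPM. TNNT2 overlaps LAD1, so its counts are uncertain to that extent, and it lost the call without the replicate block. For SULT2B1, which sulfates cholesterol, the 24-h controls were at 0.0301, 2.97 and 0.319 CPM, with experiment 2 the highest. From 4.04 over all libraries, the log2 difference of SULT2B1 became 2.49 without 24-h experiment 2 (edgeR adjusted p = 0.0664) and 3.05 without its 30 µg/cm2 library alone (edgeR adjusted p = 0.0513), neither of which was called. FGB, ABCB5 and SPRR1B had a group at the floor. ABCB5 lost the call in 12 of 23 alternatives, among them no block, without 24-h experiment 2 and without any 1 library of the repeated protocol. The high response was above 3 in 11 of the 12 lower genes, the exception being INO80D. CYP4F11, a fatty acid hydroxylase gene, rose from 1.76 ± 0.204 to 31.3 ± 16.9 CPM with 30 µg/cm2 and had a repeated change of -0.69 that was not called. The pseudogene RPLP0P2, whose 24-h controls were at the floor, shares sequence with RPLP0, and its values are uncertain.

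Beside TXNIP, the largest differences among genes called in the repeated response only were mostly of genes with few counts. ZBTB20, a transcriptional repressor gene with 31872 exon bases, stood at 5.02, 7.78 and 10.98 CPM in the controls of the repeated protocol and at 0.713, 1.44 and 1.78 CPM after exposure, against 0.987 ± 0.712 and 1.69 ± 1.06 CPM at 24 h. Treated libraries were below all controls in the repeated protocol. INO80D, a chromatin remodelling subunit gene with 14373 exon bases, stood at 0.646, 1.35 and 1.19 CPM in the repeated controls and 0, 0.173 and 0.156 CPM after. Both lost the call without the replicate block, with edgeR adjusted p of 0.152 for ZBTB20 and 0.229 for INO80D. LRRC19, the readthrough gene SENP3-EIF4A1 and a Y RNA gene in this set had a group at the floor, and no fold is drawn from them.

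The 10 genes called in both responses in the same direction with the narrowest intervals and no called difference all fell. They were PTPRG, COL5A1, PLEKHA2, ATP1B1, PLAU, ARHGAP24, HSPB1, LEPR, PTK2B and FBLN2. The receptor phosphatase gene PTPRG stood at 112, 80.05 and 91.98 CPM in the 24-h controls and at 64.2, 43.8 and 58.8 CPM with 30 µg/cm2. It stood at 92.7, 99.1 and 106 CPM in the repeated controls and 57.6, 64.2 and 65.97 CPM after repeated exposure. Its difference was 0.11, with an interval from -0.12 to 0.34. The sodium pump subunit gene ATP1B1 had changes of -0.65 and -0.64. ARHGAP24, PTK2B and FBLN2 fell more with 30 µg/cm2, with edgeR adjusted p of 0.0371, 0.0301 and 0.0409 at differences of 0.48, 0.52 and 0.50.

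Genes called lower after repeated exposure were longer than genes overall. Over 13795 protein-coding genes the median repeated log2 change was 0.13 in the shortest and -0.18 in the longest quintile by exon length, with a Spearman's rho of -0.34 across genes and of -0.36, -0.36 and -0.23 in the 3 experiments. In the high response rho was 0.08, and the 24-h experiments had 0.09, -0.14 and 0.21. The difference carried the trend too, with a rho of -0.266 and medians of 0.195 in the shortest and -0.225 in the longest quintile. Genes called lower after repeated exposure had a median of 7128 exon bases and those called higher one of 2579.5, against 4271 over all tested genes. For the difference the medians were 6276 bases in genes called lower and 3447 in those called higher. With library offsets adjusted for length, an alternative added after this trend was seen, the difference was called in 2384 genes, of which 1935 were among the 2572, and the repeated response in 611, of which 495 were among the 773. With these offsets 22 NRF2 genes were lower and 10 mitosis genes higher in the repeated response, and the part of RNA quality in the trend was not tested.

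**Figure D5:**
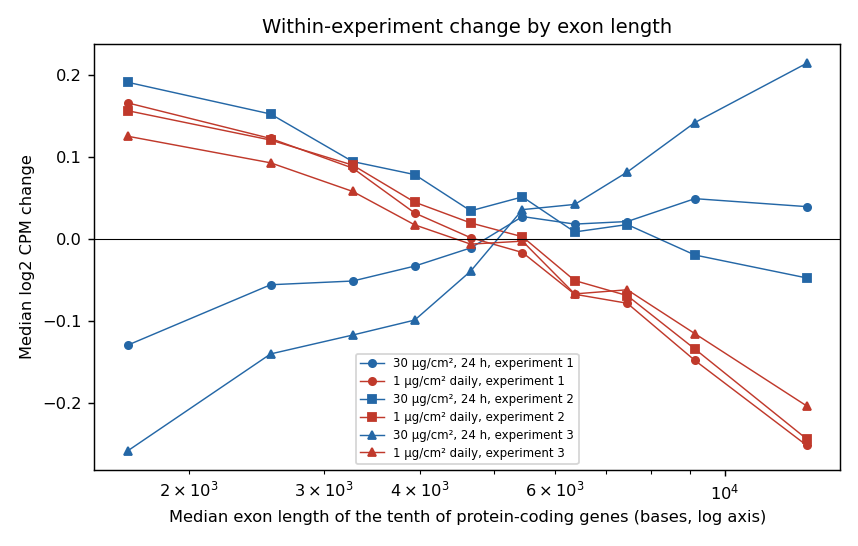
Protein-coding genes were split into 10 groups by exon length, whose median in bases is on the x axis (log scale), and the y axis gives the median change in log2 CPM within each experiment. The 3 red lines of the repeated protocol fall from 0.17, 0.16 and 0.12 in the shortest group to -0.25, -0.24 and -0.20 in the longest, whereas the blue lines of the 24-h experiments differ in direction.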

How the data were processed

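RNA-seq of BEAS-2B cells was analysed from the table of counts per gene that the authors deposited. Per the labels and the study's methods, single-end reads of 50 bases from poly-A selected RNA were aligned with STAR and the authors counted reads on genes with featureCounts. The labels list hg19 and the methods GRCh38, and the gene coordinates matched GRCh38. The annotation release, strand setting and counting options are not given in the sources used here, so overlapping genes are uncertain. The counts were fitted as deposited in edgeR 4.0.16 (R 4.3.3) with TMM normalization after filterByExpr, over all 15 libraries, with 5 condition means and the experiment number as a block within each protocol. Changes were tested with the quasi-likelihood F-test, and SEs were derived from F. The depth of 21460981 to 34724765 counts sets the floor of 3 counts.

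Experiment numbers pair the samples, since the series record gives the last number of a sample title as its experimental batch. For libraries with the same number, deviations from the group means correlated at 0.201 to 0.721 in the 24-h protocol. The range was 0.121 to 0.181 in the repeated protocol. Different numbers gave -0.683 to 0.453 at 24 h and -0.127 to -0.0341 in the repeated protocol, with means of -0.231 and -0.0774. Deviations within a group cancel out, so positive values for the same number bring negative means for different numbers. These means are thus no separate support for the pairing. No pair of libraries agreed within counting noise (lowest ratio 4.32).

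Named genes were the 12 largest called differences in each direction at a mean of 1 CPM or more in a group and with separate within-experiment changes, the 10 largest among genes called in opposite directions, the 10 largest called differences among genes called in the repeated response only, and the 10 with the narrowest intervals among genes called alike, with genes of the lists. Members and lists were chosen with earlier results of these data known. On simulated counts of 17599 genes, 79% of genes changed by a log2 of 1 and 97% of those changed by 2 were recovered for the difference. The changed genes were drawn from those with a mean of 1 CPM or more, and only the repeated arm was changed. Spread in the simulation followed the trend over expression level, not each gene's own spread. The shares therefore do not apply to genes under 1 CPM or to genes that vary more than the trend. Alternatives were other normalizations and filters, no block, DESeq2 1.42.0, limma-voom with sample weights (limma 3.58.1), other quasi-likelihood settings and leaving libraries out. Promoters and their starts came from RefSeq. Some listed genes are not reported here by name.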

Additional observations from a re-analysis of the deposited data

Results flagged for a closer look

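Of the 50 genes called in opposite directions in the responses, the 10 with the largest called differences are given as repeated minus single high response on the log2 scale (edgeR quasi-likelihood). Of the genes with higher counts, NGFR differed by -3.30, SDCBP2 by -3.30 and KLHL11 by -2.70. FAM106A, which overlaps CCDC144BP and had group means of 1.02 to 2.61 CPM, differed by -2.37. ENSG00000284431, which overlaps ADSL and SGSM3, differed by -3.84 and the pseudogene HNRNPA3P9, which overlaps EIF3M, by -3.12. The long non-coding genes ENSG00000214708, which overlaps RHOT1, ENSG00000242588 and ENSG00000260279, which overlaps ANKRD11, differed by 2.87, -2.62 and -2.55, and ENSG00000280027 by 2.86. These genes were chosen by the size of this difference, so the values are descriptions.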

How the results depend on the processing

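Without the replicate block the difference was called in 320 genes, the repeated response in 40 and the single high response in 1420. With limma-voom and sample quality weights the counts were 4787, 1735 and 4210. Without 24-h experiment 2 they were 4272 and 1353 for the difference and the repeated response, with 3699 for the high response. Leaving out 1 library at a time gave 1679 to 3786 for the difference, 97 to 1103 for the repeated response and 2065 to 3253 for the high response. The count for the difference moved by over 1.5 times without the library of repeated control experiment 2 (1706), of 30 µg/cm2 experiment 3 (1679) or of repeated PM2.5 experiment 2 (1711). The repeated response was called in 272, 188 and 97 genes without repeated control experiments 1, 2 and 3 and in 251, 188 and 99 without repeated PM2.5 experiments 1, 2 and 3. Each repeated experiment has 1 control and 1 PM2.5 library. Under the block, leaving out either takes that experiment out of the repeated response, so 2 experiments remain. The control and PM2.5 removals are therefore not separate checks. The cause of the changes in count was not tested.

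Small differences between genes that changed alike turned sign. The log2 difference of COL5A1 was -0.01423 with limma-voom and -0.001061 without 24-h control experiment 2. The log2 difference of ATP1B1 was -0.02785 without 24-h experiment 2, -0.08159 without its control library, -0.04 and -0.03 without repeated control experiments 1 and 2, -0.04 and -0.03 without repeated PM2.5 experiments 1 and 2, and -0.11 with length-adjusted offsets. The log2 difference of PLAU was -0.07082 with limma-voom, -0.12 without 24-h experiment 2, -0.12 without its control library, -0.06 without its 30 µg/cm2 library, -0.006488 and -0.06 without repeated control experiments 1 and 2, -0.005996 and -0.06 without repeated PM2.5 experiments 1 and 2, and -0.11 with length-adjusted offsets. The log2 difference of HSPB1 was 0.041 without 24-h control experiment 2. Over the settings that leave out 1 library, the differences ran from -0.001061 to 0.2083 for COL5A1, from -0.08159 to 0.1152 for ATP1B1, from -0.1201 to 0.1217 for PLAU and from -0.1299 to 0.041 for HSPB1. Of the 42 named genes with a called difference, 22 lost the call without the replicate block, in which paired experiments are treated as unpaired, and the block left the direction of each as it was. The length-adjusted offsets were added after seeing the data. With 3 experiments in each protocol, depth limits genes under 1 CPM, and the protocols differ in more than concentration.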
